A study of Homo sapiens with 9 samples.

Results

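SAHA (vorinostat), a hydroxamic acid that inhibits histone deacetylases, was compared with no treatment in the human leukaemia lines NB4, K562 and U937 on Illumina bead arrays. The comparison used 6 of the 9 arrays of the series, 1 SAHA array and 1 untreated array of each line, so each line gave 1 pair and the 3 lines were the replicates. Cells received SAHA at 5 µM for 6 h. The other 3 arrays, which also entered the fit, held the same lines after MS-275 (entinostat), a benzamide inhibitor, at 5 µM for 6 h. Both inhibitors were dissolved in DMSO, and the labels do not say whether untreated cells received the solvent, so in the comparison with untreated cells solvent and SAHA cannot be told apart. Cells of both inhibitor groups had received DMSO with the drug. The labels call all lines AML lines, although K562 was started from blast-crisis cells of a chronic myeloid leukaemia. NB4 comes from an acute promyelocytic leukaemia and U937 from a histiocytic lymphoma with monocytic features. Each is a single established line and not a patient sample, and each line and treatment has 1 array. The sources name neither slides nor scan dates, and possible batches were therefore left untested. Of 16577 genes with any probe, the 11228 with a probe detected on at least 3 of the 9 arrays were tested.

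Lysine acetylation of histone tails is added by acetyltransferases and removed by deacetylases (HDACs). Zinc-dependent HDACs are the targets of SAHA. Those of class I work inside corepressor complexes such as SIN3, NuRD, CoREST and NCoR, and also act on proteins other than histones. HDAC inhibitors are known for raising the cell cycle inhibitor p21 and for arresting or killing leukaemia cells, and genes fall as well as rise under them. Hydroxamic acids such as SAHA reach most zinc-dependent HDACs, whereas MS-275 is selective for class I.

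Erythroid markers set K562 apart, whereas the promyelocytic set did not separate NB4 from U937. Of the erythroid markers on the array 11 of 11 were detected in K562, against 3 in NB4 and 4 or 5 in U937, with summed intensities of 124443 and 138908 in K562 and 6074 to 13657 in the other lines. Promyelocytic markers numbered 8 of 9 in NB4, with summed intensities of 49521 (SAHA) and 48138 (untreated), and 2 of 9 in K562, with 825 and 1114. In U937 they also numbered 8 of 9 and summed higher, to 75405 and 78140. MPO, the defining neutrophil peroxidase, was detected in NB4 alone, and ELANE, the neutrophil elastase, was not detected in untreated NB4. Monocytic markers numbered 7 or 8 of 9 in U937 (summed intensity 33698 without and 31268 with SAHA), 7 of 9 in NB4 (10488 and 8951) and 3 (untreated) or 6 (SAHA) of 9 in K562, where their summed intensity was 2625 and 2560. Between 11826 and 12558 of 22177 probes were detected per array, which is 53.3 to 56.6%, and medians ran from 104.3 to 138.6 intensity units before normalization. Lymphocyte markers numbered 2 to 4 of 7 with summed intensities of 306 to 846, and CD3D, CD3E and MS4A1 were detected on none of the 6 arrays. Epithelial and stromal markers numbered 6 or 7 of 10 in K562 (summed intensity 13341 to 16019), 5 or 6 in NB4 and 3 in U937, and COL1A2 and COL3A1 were not detected.

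SAHA changed 2665 of 11228 genes, 23.7%, at an adjusted p under 0.05 in limma with the line as a block. Bulk RNA was measured, so a changed mix of cells and a change within each cell cannot be told apart. Of the changed genes 1342 rose, 12.0% of the genes tested, and 1323 fell, 11.8%. Changes below are differences of normalized log2 intensity, SAHA minus untreated, given as the mean of 3 lines ± SE. The SE comes from the limma fit over all 9 arrays, which shares spread across genes. It does not measure the spread of the 3 line changes alone. A change of 1 means 2-fold. The risen genes had a median change of 0.92 and the fallen genes one of -0.88, and 594 rose and 486 fell at least 2-fold. At least 4-fold, 68 genes rose and 34 fell, and at least 8-fold 5 rose and 1 fell. All 3 SAHA arrays lay above all 3 untreated arrays for 844 genes (7.52%) and below them for 954 (8.50%). Being at least 2-fold up in every line was seen for 243 genes (2.16%) and at least 2-fold down for 236 (2.10%). The sizes depend on the background correction. On the deposited log2 values, which hold none, 48 of the 216 named genes past the test had a change over 1.5 times smaller and 0 a change over 1.5 times larger. RGL1 then changed by 3.05, CDKN1A by 3.01, TUFT1 by 2.91, DACT3 by 2.86, CRISPLD2 by 2.55 and CBFA2T3 by -2.64. Those values gave 123 genes at least 2-fold up and 126 at least 2-fold down in every line. With the arrays scaled to equal medians instead of quantiles, 998 genes rose and 1804 fell, so that 35.6% of the changed genes were risen against 50.4% as reported, and the median of all genes was -0.09 against -0.01. Without NB4, 887 genes changed (406 up, 481 down), without K562 1681 (846 up, 835 down) and without U937 1069 (547 up, 522 down). An exact sign-change permutation over 3 pairs cannot give a two-sided p below 0.25, so each test on a single gene rests on the spread limma shares across genes.

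**Figure D1:**
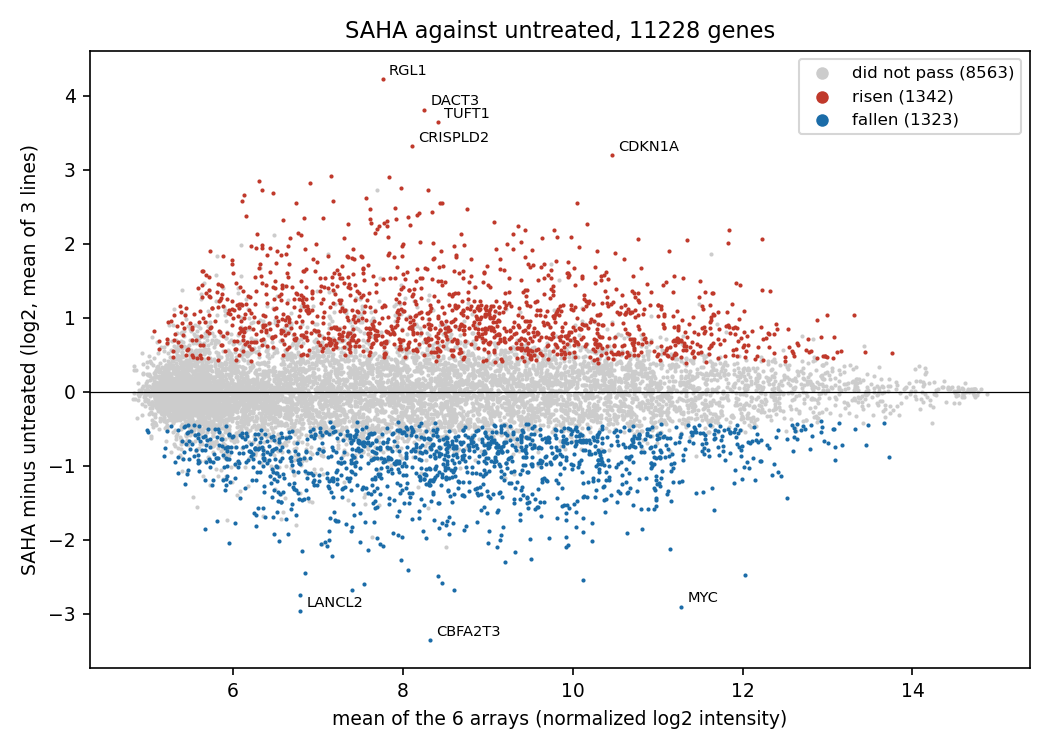
Log2 change with SAHA (vertical axis, mean of 3 lines) against the mean normalized log2 intensity of the 6 arrays (horizontal axis) for 11228 genes; red points rose (1342), blue points fell (1323) and grey points did not pass the test. The 5 largest rises and 3 largest falls are labelled, and MYC and CDKN1A lie at higher intensities than the others.

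The changed share varied with signal. With the genes ordered by mean log2 intensity and cut into 5 equal groups, the dimmest (4.86 to 5.78) held 3.34% risen and 2.76% fallen genes. Among genes between 5.78 and 6.97 the shares were 10.6% and 8.69%, and between 6.97 and 8.38 they were 14.5% and 14.6%. They were 17% and 17.6% between 8.38 and 9.98, and 14.3% and 15.3% above that. Among risen genes 1093 were detected on all untreated arrays and 249 were not detected on at least 1 of them. Among fallen genes 1196 were detected on all SAHA arrays and 127 were not. For a gene below detection the array gives a floor and not a level, so the size of its change is uncertain and depends on the background correction.

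The largest rises and falls described here are the 20 each way among genes that passed the test, moved one way in every line and had a detected signal on each array of the group with more signal. RGL1, a guanine nucleotide exchange factor for Ral GTPases, measured 5.22, 4.99 and 6.73 (normalized log2 intensity) in untreated NB4, K562 and U937 cells and 10.63, 8.43 and 10.58 with SAHA. The groups did not overlap, and the change was 4.23 ± 0.34 (adjusted p = 0.00131), or 3.05 on the deposited log2 values. DACT3, an antagonist of the Wnt mediator Dishevelled, measured 5.06, 8.08 and 5.87 without and 11, 10.05 and 9.41 with SAHA, in the same order of lines, a change of 3.81 ± 0.65 (adjusted p = 0.00726). NB4 went from the lowest of the untreated values to the highest of the treated ones, and K562, which started highest, moved least. TUFT1, which encodes tuftelin, a protein first described in tooth enamel, measured 6.09, 7.21 and 6.47 without and 10.61, 11.15 and 8.96 with SAHA, a change of 3.65 ± 0.34 (adjusted p = 0.00165). CDKN1A encodes p21, which inhibits cyclin-dependent kinases. It measured 8.42, 9.31 and 8.85 without and 11.31, 11.80 and 13.07 with SAHA, a change of 3.20 ± 0.30 (adjusted p = 0.00165) or 9.21-fold. All SAHA arrays lay above all untreated arrays for TUFT1 and CDKN1A, and CDKN1A was detected on all 6. CRISPLD2, a secreted protein, measured 7.30, 6.13 and 5.88 without and 11.55, 8.92 and 8.83 with SAHA, with NB4 highest in both groups. Its change was 3.33 ± 0.36 (adjusted p = 0.00197). Signal passed detection on 2 of 3 untreated arrays for DACT3 and 1 of 3 untreated arrays for RGL1. Fits without 1 line did not call every gene, failing without U937 for DACT3 (adjusted p = 0.0601).

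Among the 20 were also the following genes. CGN encodes cingulin, a tight junction protein, and changed by 2.92 ± 0.42 (adjusted p = 0.00401). CAPN5, a calpain protease, changed by 2.83 ± 0.35 (adjusted p = 0.00261), and KCTD17, an adaptor of cullin ubiquitin ligases, by 2.90 ± 0.49 (adjusted p = 0.00687). The fatty acid transporter SLC27A1 changed by 2.75 ± 0.43 and the tetraspanin TSPAN33 by 2.73 ± 0.56. For KCTD17 and TSPAN33 the groups overlapped, because untreated U937 cells already had 8.86 and 9.81, within the range with SAHA. PMEL, the fibril protein of melanosomes, changed by 2.69 ± 0.16, the cell surface glypican GPC2 by 2.62 ± 0.61 and the neuronal protease inhibitor SERPINI1 by 2.58 ± 0.35. DENND2C, of a family of exchange factors for RAB GTPases, changed by 2.55 ± 0.28. ANG, the secreted ribonuclease angiogenin, changed by 2.49 ± 0.39, from 4.85, 6.09 and 9.07 to 8.31, 8.37 and 10.79, with overlap between the groups. A dimmer probe of ANG gave 1.36. HPCAL4, a neuronal calcium sensor, was detected on 0 of 3 untreated and on all 3 SAHA arrays. On the background-corrected scale used here it was at least 4.53-fold higher with SAHA (adjusted p = 0.00215). Detection reached 2 of 3 untreated arrays for CAPN5, KCTD17, TSPAN33, PMEL, GPC2, DENND2C and ANG and 1 of 3 untreated arrays for SERPINI1. In the fits on 2 lines the call was lost without NB4 for CGN, KCTD17, SLC27A1, TSPAN33 and GPC2 (adjusted p from 0.0518 to 0.114) and without K562 for TSPAN33 and GPC2 (adjusted p from 0.0624 to 0.115). Smaller changes came from the deposited log2 values, 1.90 for CGN, 1.76 for CAPN5, 1.54 for PMEL, 1.63 for SERPINI1, 1.51 for DENND2C and 1.51 for HPCAL4.

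KLF2, IER3 and TNFSF9 were also among the 20 largest rises. KLF2, a zinc finger transcription factor of quiescent lymphocytes and endothelium, measured 7.28, 7.05 and 7.13 without and 10.09, 8.88 and 10.16 with SAHA, a change of 2.55 ± 0.23 (adjusted p = 0.0016). Untreated lines lay within a narrow span and K562 rose least. IER3, an immediate early gene linked to cell survival, measured 8.05, 10.06 and 8.21 without and 11.12, 11.85 and 11.01 with SAHA, a change of 2.55 ± 0.31 (adjusted p = 0.00248). TNFSF9, the ligand of the T cell receptor 4-1BB, measured 6.41, 7.83 and 7.32 without and 9.54, 9.50 and 10.16 with SAHA, a change of 2.55 ± 0.27 (adjusted p = 0.00197). In each of these genes every SAHA array lay above every untreated array. The genes given with values here kept their calls without any 1 line.

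**Figure D2:**
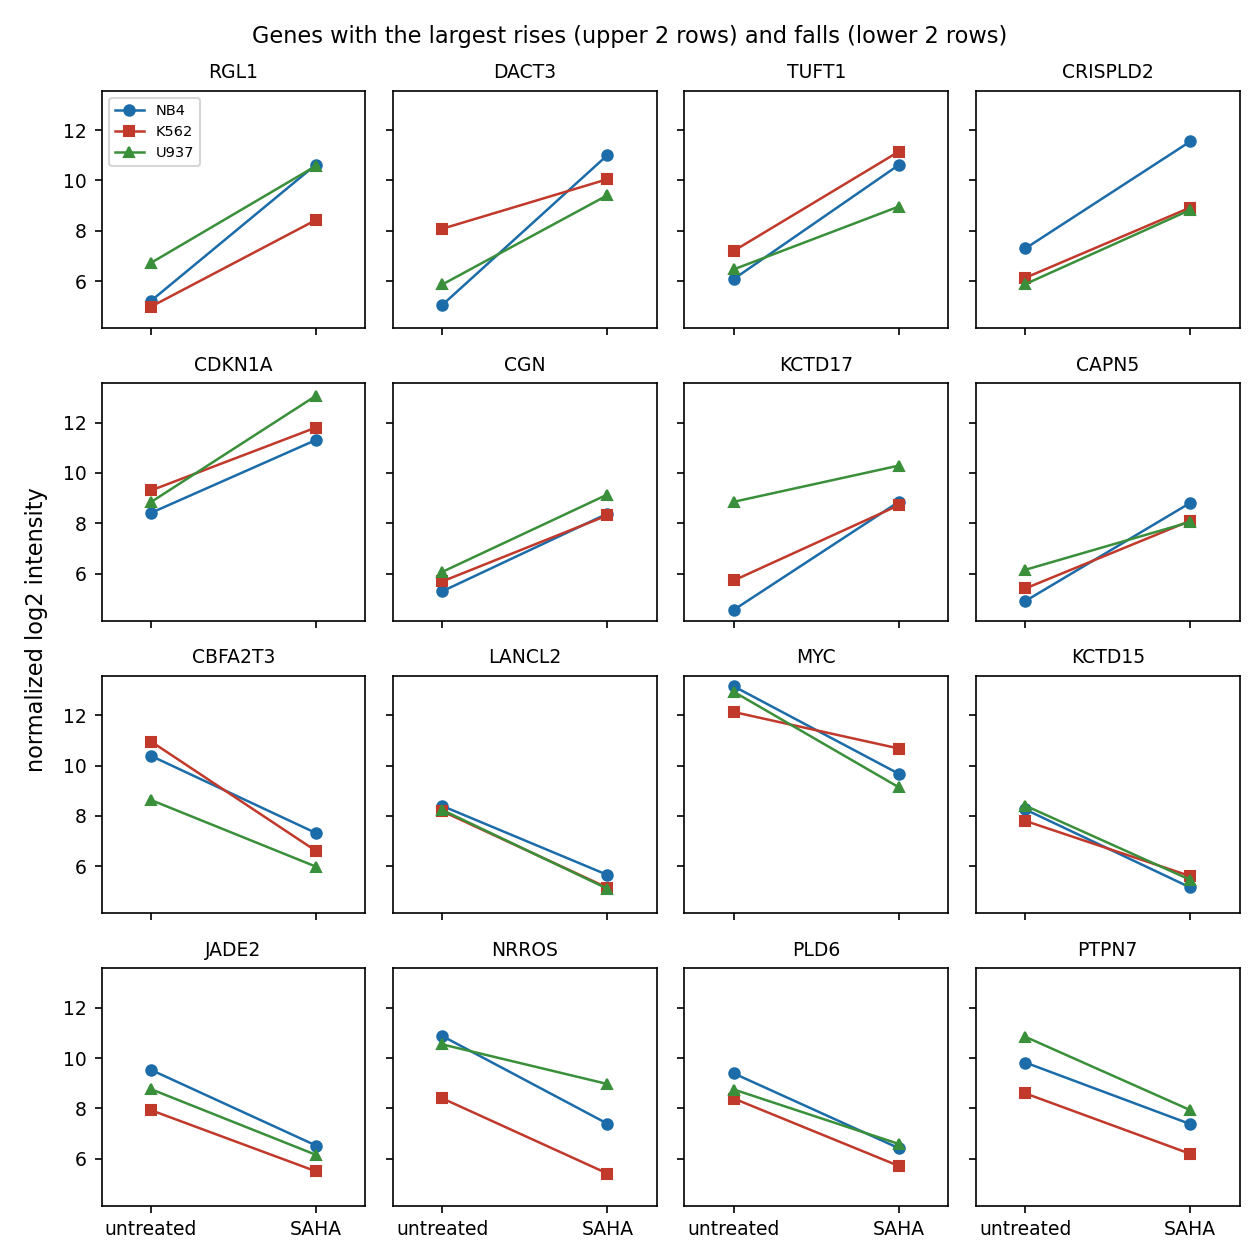
Normalized log2 intensity on the untreated and the SAHA array of NB4 (circles), K562 (squares) and U937 (triangles) for the 8 largest rises and 8 largest falls, lines joining the 2 arrays of a line. All 3 lines run the same way in every panel, and RGL1, TUFT1 and CDKN1A rise from 5.65, 6.59 and 8.86 to 9.88, 10.24 and 12.06 on average.

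Among the 20 largest falls were the transcriptional regulators CBFA2T3, MYC, MYB, ZEB2 and NFE2. CBFA2T3 (ETO2), a transcriptional corepressor of haematopoietic progenitors, measured 10.38, 10.95 and 8.63 in untreated NB4, K562 and U937 cells and 7.32, 6.61 and 5.99 with SAHA, a change of -3.35 ± 0.32 (adjusted p = 0.00166). The groups did not overlap. MYC, the growth-promoting transcription factor, measured 13.14, 12.12 and 12.92 without and 9.67, 10.67 and 9.14 with SAHA, a change of -2.90 ± 0.41 (adjusted p = 0.00401). K562 had the lowest untreated and the highest treated MYC value, and its change of -1.45 was the smallest. MYB, a transcription factor of immature haematopoietic cells, measured 13.51, 12.58 and 13.72 without and 10.45, 10.42 and 11.53 with SAHA, a change of -2.47 ± 0.20 (adjusted p = 0.00131). Both genes stayed detected on every array and their groups did not overlap. ZEB2, a repressor of the zinc finger homeobox class, measured 9.53, 9.38 and 10.05 without and 7.14, 7.29 and 7.08 with SAHA, a change of -2.49 ± 0.28 (adjusted p = 0.00213). NFE2, an erythroid and megakaryocytic transcription factor, measured 10.74, 13.17 and 10.28 without and 7.62, 10.61 and 8.32 with SAHA, a change of -2.55 ± 0.27 (adjusted p = 0.00191). Its groups overlapped, since K562 with SAHA stayed close to the untreated value of the other lines. On 2 lines alone the threshold was missed without NB4 by MYC (adjusted p = 0.0519).

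Another 15 genes completed the 20 largest falls. LANCL2, of the lanthionine synthetase-like family, measured 8.39, 8.18 and 8.23 without and 5.66, 5.15 and 5.11 with SAHA, a change of -2.96 ± 0.14 (adjusted p = 0.000802). Its level with SAHA is close to the detection floor. KCTD15, of a family of BTB domain proteins, changed by -2.74 ± 0.21 (adjusted p = 0.00131). JADE2, a scaffold of a histone acetyltransferase complex, measured 9.53, 7.93 and 8.76 without and 6.53, 5.51 and 6.16 with SAHA, a change of -2.68 ± 0.15 (adjusted p = 0.00115). NRROS, which holds latent TGF-beta on myeloid cells, changed by -2.67 ± 0.44 (adjusted p = 0.0062), with overlapping groups. PLD6, a mitochondrial phospholipase, changed by -2.60 ± 0.28 and PTPN7, a tyrosine phosphatase of haematopoietic cells, by -2.58 ± 0.18. A dimmer PTPN7 probe, near the floor, gave -0.33. ASCL2, a basic helix-loop-helix transcription factor, changed by -2.41 ± 0.16, and the tRNA dihydrouridine synthase DUS3L by -2.30 ± 0.24. PIGW, of GPI anchor synthesis, changed by -2.27 ± 0.18, and AP5S1, a subunit of the endosomal AP-5 adaptor, by -2.16 ± 0.14. CARD9, an adaptor of innate immune receptors, changed by -2.16 ± 0.18. ZMYND8, a bromodomain reader of acetylated histones, changed by -2.13 ± 0.16, and its dimmer probe by -0.44. ARMC5, PBDC1 and CCDC102A changed by -2.45, -2.26 and -2.22. Adjusted p-values of all 20 falls, MYC among them, ran from 0.000802 to 0.0062. Signal passed detection on 2 of 3 SAHA arrays for KCTD15 and 1 of 3 SAHA arrays for LANCL2. Leaving out any 1 line kept the calls of the genes valued here. On the deposited log2 scale the change shrank to -1.79 for LANCL2, -1.65 for KCTD15, -1.30 for AP5S1, -1.50 for ARMC5 and -1.44 for CCDC102A.

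Promoters of the leading genes were set side by side, because the p21 promoter is the textbook HDAC inhibitor target and its GC boxes, bound by Sp1 family factors, are where that response was mapped. The 250 bases before the RefSeq transcription start (build GRCh38.p14) are printed 5′ to 3′ in the direction of the gene, with GC boxes (GGGCGG on either strand, overlaps counted) in capitals. CDKN1A (chr6:36678464-36678713, + strand) had 4 GC boxes, DACT3 (chr19:46661183-46661432, - strand) had 4 and RGL1 (chr1:183635859-183636108, + strand) had 1. Of the falls, CBFA2T3 (chr16:88941351-88941600, - strand) had 5, MYB (chr6:135181058-135181307, + strand) had 1 and ZEB2 (chr2:144520120-144520369, - strand) had 0.
CDKN1A: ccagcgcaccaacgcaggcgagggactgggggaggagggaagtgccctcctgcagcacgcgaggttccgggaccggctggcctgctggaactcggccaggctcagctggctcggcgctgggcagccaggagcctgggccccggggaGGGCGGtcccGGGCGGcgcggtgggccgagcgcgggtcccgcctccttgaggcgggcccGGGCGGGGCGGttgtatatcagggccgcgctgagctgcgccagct
DACT3: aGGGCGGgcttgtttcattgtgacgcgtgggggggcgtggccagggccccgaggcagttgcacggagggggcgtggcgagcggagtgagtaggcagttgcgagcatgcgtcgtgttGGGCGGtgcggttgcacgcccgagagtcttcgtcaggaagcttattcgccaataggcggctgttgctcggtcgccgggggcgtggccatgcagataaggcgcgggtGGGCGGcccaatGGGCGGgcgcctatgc
RGL1: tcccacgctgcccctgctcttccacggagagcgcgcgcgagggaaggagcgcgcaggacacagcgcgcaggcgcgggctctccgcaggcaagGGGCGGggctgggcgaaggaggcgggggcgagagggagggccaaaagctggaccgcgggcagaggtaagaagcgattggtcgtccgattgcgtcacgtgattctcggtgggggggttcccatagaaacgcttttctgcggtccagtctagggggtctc
CBFA2T3: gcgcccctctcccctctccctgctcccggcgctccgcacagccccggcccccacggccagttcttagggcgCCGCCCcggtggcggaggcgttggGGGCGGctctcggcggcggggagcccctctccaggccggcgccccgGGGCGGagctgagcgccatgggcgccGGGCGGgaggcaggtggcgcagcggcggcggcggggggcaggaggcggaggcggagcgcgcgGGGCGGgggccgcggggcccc
MYB: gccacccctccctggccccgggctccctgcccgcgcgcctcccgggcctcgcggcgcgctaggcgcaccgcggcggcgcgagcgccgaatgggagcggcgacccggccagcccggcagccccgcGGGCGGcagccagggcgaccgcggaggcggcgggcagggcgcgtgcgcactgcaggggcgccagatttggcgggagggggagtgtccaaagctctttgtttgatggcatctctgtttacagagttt
ZEB2: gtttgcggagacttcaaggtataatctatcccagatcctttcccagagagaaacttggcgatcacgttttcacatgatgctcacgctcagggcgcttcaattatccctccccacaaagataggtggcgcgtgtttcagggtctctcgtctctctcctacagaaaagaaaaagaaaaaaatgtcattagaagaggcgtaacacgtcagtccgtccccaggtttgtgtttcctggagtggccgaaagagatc

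A GC box stood in the 250 bases upstream of 881 of 1119 risen genes with a listed promoter (78.7%), of 740 of 1136 fallen genes (65.1%) and of 6049 of 9259 genes tested (65.3%). The share among all 27305 promoters of the table was 42.3%. Among the 20 largest rises 14 of 16 listed promoters held one, and among the 20 largest falls 9 of 14. The CCAAT box (CCAAT on either strand) stood in 45.5% of the risen, 32.0% of the fallen and 35.7% of the tested genes, and in 33.0% of all promoters. The E-box CACGTG, which MYC with MAX can bind, stood in 7.95% of the risen, 10.8% of the fallen and 8.87% of the tested genes, and in 6.49% of all. The AP-1 site TGANTCA stood in 3.49%, 4.40% and 4.16% of the same sets, and in 6.60% of all. The TATA box TATAAA stood in 4.92%, 3.79% and 5.91%, and in 11.1% of all. The CRE core TGACGT stood in 13%, 8.80% and 10.1%, and in 7.42% of all. Each motif was searched on both strands. Base composition moved with the GC box, with a median GC content of 66.8% for risen, 64.8% for fallen and 64.4% for tested genes, and its part was not tested. A match describes letters and not a bound site.

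The most even changes were sought among genes past the test and at least 2-fold in every line, with the same detection rule. GOLGB1, the Golgi tether giantin, rose by 1.08 in NB4, 1.06 in K562 and 1.09 in U937, and KIF3B, a kinesin motor subunit, by 1.09 in NB4, 1.03 in K562 and 1.08 in U937. CRIPT, a binding partner of postsynaptic PDZ proteins, measured 9.99, 9.43 and 9.19 without and 11.22, 10.61 and 10.45 with SAHA, a change of 1.22 ± 0.13 (adjusted p = 0.00197). ANKS1A, an adaptor of EphA receptors, rose by 1.04 ± 0.18 and CELSR3, an atypical cadherin, by 1.38 ± 0.15. FCRLA, a B cell protein, rose by 1.10 ± 0.27. The most even falls of that set were STAG1, a cohesin subunit, at -1.63 in NB4, -1.61 in K562 and -1.63 in U937, and the ubiquitin-conjugating enzyme UBE2D4 at -1.10 in NB4, -1.07 in K562 and -1.10 in U937. CAD, the first enzyme of pyrimidine synthesis, fell to 8.53, 7.51 and 7.94 from 9.83, 8.82 and 9.22, a change of -1.30 ± 0.13 (adjusted p = 0.00172). ZFP91 (a zinc finger ubiquitin ligase), UBXN8 and the complex I assembly factor NDUFAF4 changed by -1.59 ± 0.11, -2.06 ± 0.13 and -1.42 ± 0.13. Levels of KIF3B, CELSR3 and FCRLA overlapped between the groups although every line moved, since the lines started far apart. Detection reached 2 of 3 untreated arrays for CELSR3 and 1 of 3 untreated arrays for FCRLA. Detection reached 2 of 3 SAHA arrays for STAG1 and UBXN8. Fits without 1 line did not call every gene, failing without NB4 for ANKS1A (adjusted p = 0.058), without K562 for FCRLA (adjusted p = 0.102) and without U937 for GOLGB1 and FCRLA (adjusted p from 0.06 to 0.106). The deposited log2 values gave smaller changes of 0.70 for FCRLA, -0.91 for STAG1 and -1.31 for UBXN8.

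Among the drug targets, the zinc-dependent HDAC genes, 2 of 8 tested members rose, against 12.0% of all genes, and 0 fell (1 to 2 up and 0 down without 1 line, median change 0.12, or -0.02 with equal-median scaling, against -0.01 for all genes). HDAC3, the catalytic subunit of the NCoR and SMRT complexes, measured 10.64, 10.89 and 10.52 in untreated NB4, K562 and U937 cells and 12.00, 11.73 and 11.60 with SAHA, a change of 1.09 ± 0.14 (adjusted p = 0.00309). HDAC11, the only class IV member, measured 5.15, 6.56 and 6.10 without and 6.63, 7.41 and 7.16 with SAHA, a change of 1.13 ± 0.27 (adjusted p = 0.0231). Both genes had no overlap between the groups. The others did not pass the test, at 0.13 for HDAC1, -0.23 for HDAC2, -0.20 for HDAC4, 0.10 for HDAC6 and -0.18 for HDAC8. HDAC5 was detected on 0 untreated and 2 SAHA arrays and has no measurable fold. Of the 31 tested subunits of HDAC corepressor complexes 5 rose (16.1%) and 3 fell (9.68%), against 12.0% and 11.8% of all genes. The list median was 0.29, and without 1 line 2 to 5 rose and 1 to 2 fell. ING1 and SAP130, of SIN3 complexes, rose by 1.37 ± 0.14 and 1.23 ± 0.23, and GPS2, of NCoR, by 1.05 ± 0.13. A dimmer ING1 probe gave 0.08. The NuRD paralogues MTA3, MTA2 and MTA1 all fell, at -1.17 ± 0.16, -0.79 ± 0.12 and -0.55 ± 0.12. Signal passed detection on 2 of 3 untreated arrays for HDAC11. In the fits on 2 lines the call was lost without NB4 for HDAC11, SAP130, MTA2 and MTA1 (adjusted p from 0.0534 to 0.175), without K562 for MTA1 (adjusted p = 0.0621) and without U937 for HDAC11, SAP130, MTA2 and MTA1 (adjusted p from 0.0601 to 0.152). Smaller changes came from the deposited log2 values, 0.62 for HDAC11. MTA1 missed the threshold with the 6 arrays alone (adjusted p = 0.0528).

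Acetyltransferase genes fell or did not pass the test. Of 13 tested histone acetyltransferases 0 rose and 7 fell (0 up and 3 to 5 down without 1 line), 53.8% against 11.8% of all genes, with a median of -0.66. KAT2A (GCN5), the acetyltransferase of the SAGA complex, measured 10.94, 10.81 and 11.07 without and 9.48, 9.70 and 9.64 with SAHA, a change of -1.33 ± 0.13 (adjusted p = 0.00172). CREBBP (CBP), a broad transcriptional coactivator, measured 9.49, 9.01 and 8.92 without and 8.30, 7.98 and 7.87 with SAHA, a change of -1.09 ± 0.12 (adjusted p = 0.00194). In both genes every SAHA array lay below every untreated array. KAT8, which acetylates histone H4, fell, at -0.78 ± 0.15. Of 11 tested demethylases 1 rose (9.09%) and 3 fell (27.3%), against 12.0% and 11.8% of all genes. The list median was -0.14, and without 1 line 0 to 1 rose and 1 to 3 fell. PHF2, which acts on histone H3, measured 8.01, 7.88 and 8.42 without and 5.89, 5.72 and 6.62 with SAHA, a change of -2.02 ± 0.16 (adjusted p = 0.00131), although its dimmer probe gave -0.23. KDM3B changed by -1 ± 0.16 and KDM2B by -0.79 ± 0.12, where 2 dimmer KDM2B probes gave 0.02 and -0.22. The rise was KDM4B, at 0.58 ± 0.16. Its call was lost on the deposited log2 values (adjusted p = 0.0567) and with the 6 arrays alone (0.0683). Calls that failed on 2 lines were those without NB4 of KDM3B, KDM2B and KDM4B (adjusted p from 0.0575 to 0.141), without K562 of KAT8 and KDM4B (adjusted p from 0.0565 to 0.0883) and without U937 of KAT8, KDM3B and KDM4B (adjusted p from 0.0682 to 0.174). On the deposited log2 scale the change shrank to -1.29 for PHF2.

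Elongation control genes moved in both directions. Of 19 tested BET and elongation genes 3 rose (15.8%) and 4 fell (21.1%), with a median of -0.09. Of all genes 12.0% rose and 11.8% fell. Without 1 line 0 to 4 of the 19 rose and 1 to 3 fell. MEPCE, which caps the 7SK RNA that holds the elongation kinase P-TEFb inactive, measured 12.40, 12.15 and 12.07 without and 10.48, 9.82 and 9.96 with SAHA, a change of -2.12 ± 0.13 (adjusted p = 0.00115). LARP7, which also binds 7SK, changed by -1.05 ± 0.21 (adjusted p = 0.0135). HEXIM1, the P-TEFb inhibitor on 7SK and a known HDAC inhibitor response gene, changed by 0.71 ± 0.21 (adjusted p = 0.0497), the opposite direction, with 0.14 in K562. HEXIM1 missed the threshold on the deposited log2 values (adjusted p = 0.0669), with the 6 arrays alone (0.0881) and without the detection filter (0.0778). SUPT4H1, of the elongation factor DSIF, rose by 1.01 ± 0.17, and NELFCD and NELFA, of the pausing complex NELF, fell, at -0.77 ± 0.16 and -0.51 ± 0.13. Of 44 Mediator and general transcription factor genes 7 rose (15.9%) and 8 fell (18.2%), with a median of -0.05. Without 1 line 5 to 7 rose and 0 to 1 fell. GTF2B (TFIIB), which positions RNA polymerase II, measured 9.61, 9.71 and 9.41 without and 11.38, 10.84 and 11.25 with SAHA, a change of 1.58 ± 0.19 (adjusted p = 0.00248). MED20, MED26 and MED19 rose by 1.36 ± 0.18, 1.14 ± 0.15 and 1.06 ± 0.15, while MED24, MED16 and MED12 fell, at -0.86 ± 0.17, -0.64 ± 0.14 and -0.57 ± 0.15. Of 57 tested histone genes 6 rose (1 to 3 without 1 line), 10.5%, and 0 fell. The linker histone gene H1-10 led at 1.16 ± 0.14 (adjusted p = 0.0024). Histone genes are near-identical copies, so probes may share signal among them. On 2 lines alone the threshold was missed without NB4 by LARP7, HEXIM1, SUPT4H1, NELFCD, NELFA, MED16 and MED12 (adjusted p from 0.0676 to 0.268), without K562 by NELFA, MED24, MED16 and MED12 (adjusted p from 0.0665 to 0.122) and without U937 by HEXIM1, SUPT4H1, NELFCD, NELFA, MED24, MED16 and MED12 (adjusted p from 0.067 to 0.214). The deposited log2 values gave smaller changes of 0.38 for HEXIM1. NELFA (adjusted p = 0.0595) and MED12 (0.0532) missed the threshold with the 6 arrays alone.

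**Figure D3:**
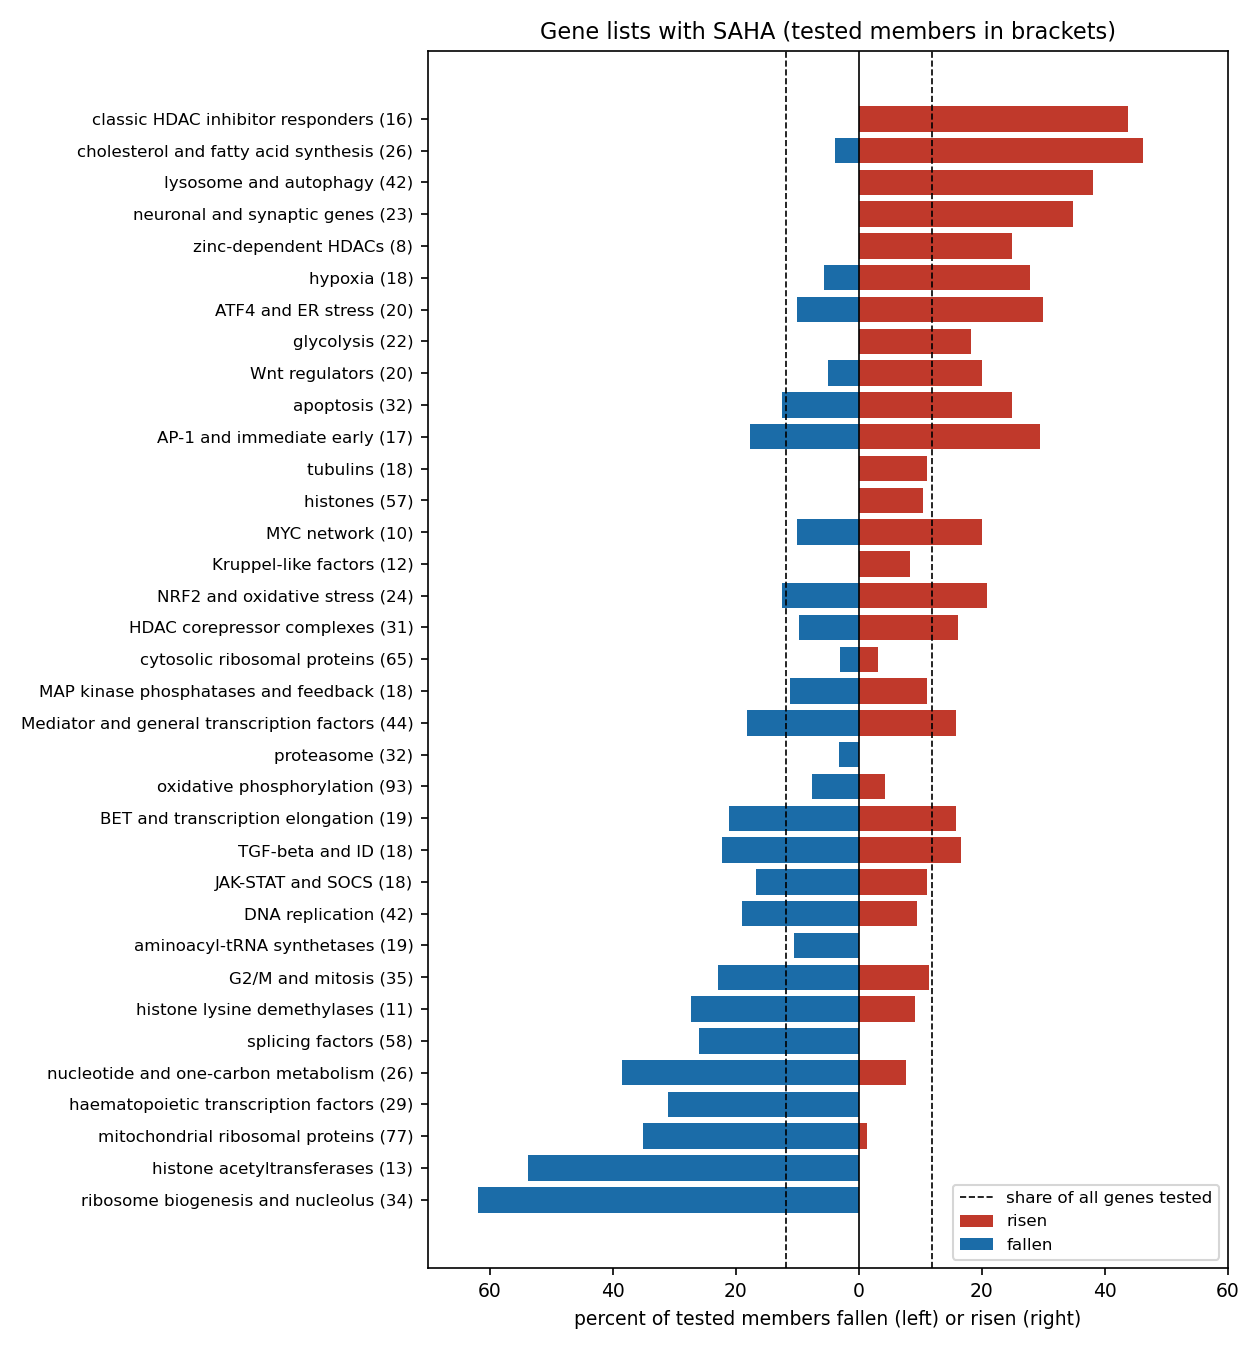
Percent of tested members that rose (right, red) or fell (left, blue) with SAHA in each of 35 gene lists, tested members in brackets, ordered by the difference of the shares; dashed lines mark the shares among all genes tested, 12.0% risen and 11.8% fallen. Cholesterol and fatty acid synthesis has the longest bar on the right, at 46.2%, and ribosome biogenesis the longest on the left, at 61.8%.

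Regulators of blood cell identity fell or did not pass. Of 29 tested haematopoietic transcription factor genes 0 rose and 9 fell, 31.0%, with a median of -0.84. Of all genes 12.0% rose and 11.8% fell. Without 1 line 0 of the 29 rose and 8 to 11 fell. Like the other lists, this one was chosen with earlier results of these data known, so its share is a description. The 4 largest falls were CBFA2T3, NFE2, ZEB2 and MYB, described above. The list median was -1.13 in NB4, -0.32 in K562 and -0.32 in U937. In the MYC network, with 0 to 1 up and 0 to 1 down without 1 line, 1 of 10 tested genes, MYC, fell (10%) and 2 rose (20%). Those were MXD1 and MXD3, whose products compete with MYC for MAX. MXD1 measured 8.92, 8.57 and 6.91 without and 10.66, 9.69 and 9.85 with SAHA, a change of 1.93 ± 0.37 (adjusted p = 0.0109), and MXD3 changed by 1.08 ± 0.20 (adjusted p = 0.0087). Of 18 JAK-STAT genes 2 rose (11.1%) and 3 fell (16.7%), with a median of -0.10. Without 1 line 0 to 2 rose and 0 to 2 fell. STAT5A, which transmits growth factor signals in myeloid and erythroid cells, measured 10.45, 11.34 and 10.35 without and 8.14, 8.77 and 9.29 with SAHA, a change of -1.98 ± 0.27 (adjusted p = 0.00342). STAT3 changed the other way, by 0.76 ± 0.19 (adjusted p = 0.0275). It missed the threshold with equal-median scaling (adjusted p = 0.0607). SOCS2, a feedback inhibitor that STAT5 induces, changed by -1.17 ± 0.24 (adjusted p = 0.0146). Detection reached 2 of 3 SAHA arrays for SOCS2. Leaving out 1 line ended the call, without NB4 for MXD1, MXD3, STAT5A, STAT3 and SOCS2 (adjusted p from 0.0502 to 0.113), without K562 for MXD3 (adjusted p = 0.0541) and without U937 for MXD1, STAT3 and SOCS2 (adjusted p from 0.0645 to 0.178). Smaller changes came from the deposited log2 values, 0.68 for MXD3 and -0.69 for SOCS2.

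Early-response and signalling genes were mixed. Of 17 tested AP-1 and immediate early genes 5 rose (29.4%) and 3 fell (17.6%), with a median of 0.35. Of all genes 12.0% rose and 11.8% fell. Without 1 line 2 to 4 of the 17 rose and 2 to 3 fell. FOS, an AP-1 subunit, measured 6.08, 6.37 and 6.68 without and 9.17, 7.59 and 9.78 with SAHA, a change of 2.47 ± 0.39 (adjusted p = 0.0055). FOSL1, another FOS family member, measured 7.61, 7.62 and 7.58 without and 5.94, 5.32 and 5.80 with SAHA, a change of -1.92 ± 0.18 (adjusted p = 0.00165). Neither gene had overlapping groups, and the 2 moved in opposite directions in every line. IER5 rose by 1.73 ± 0.14 and ATF3 by 0.70 ± 0.13. Of 18 genes of MAP kinase feedback 2 rose and 2 fell, 11.1% each way and near the shares of all genes. Without 1 line 2 rose and 0 to 2 fell. The rises were ERRFI1 (an inhibitor of the EGF receptor) at 1.97 ± 0.27 and DUSP5 (an ERK phosphatase) at 1.82 ± 0.28. The falls were TRIB3 at -1.34 ± 0.26 and SPRY2 at -1.12 ± 0.29. Of 12 Kruppel-like factor genes 1, KLF2, rose, 8.33% (1 up and 0 down without 1 line). Of 18 TGF-beta and ID genes 3 rose (16.7%) and 4 fell (22.2%). Without 1 line 0 to 2 rose and 1 to 2 fell. ID2 and ID3, inhibitors of basic helix-loop-helix factors, rose by 1.77 ± 0.42 and 1.65 ± 0.31, and TGIF1, a SMAD corepressor, fell, at -1.18 ± 0.34. Of 20 Wnt genes 4 rose (20%) and 1 fell (5%), with 1 to 3 up and 0 to 1 down without 1 line. Among the rises were the receptors FZD2 at 1.62 ± 0.24 and FZD4 at 1.26 ± 0.33. The fall was AMER1 at -1.09 ± 0.26. Signal passed detection on 2 of 3 untreated arrays for ID3 and FZD4. Fits without 1 line did not call every gene, failing without NB4 for FOS, ATF3, TRIB3, SPRY2, TGIF1, FZD2, FZD4 and AMER1 (adjusted p from 0.058 to 0.207), without K562 for ATF3, SPRY2, ID2, TGIF1, FZD4 and AMER1 (adjusted p from 0.0589 to 0.102) and without U937 for TRIB3, ID2, ID3 and TGIF1 (adjusted p from 0.0504 to 0.107). On the deposited log2 scale the change shrank to -1.10 for FOSL1, 1.03 for ID3 and 0.78 for FZD4. Without the detection filter SPRY2, ID2, TGIF1 and FZD4 missed the threshold (adjusted p from 0.0504 to 0.0848). TGIF1 also missed it with the 6 arrays alone (adjusted p = 0.104).

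Genes for making ribosomes fell while those for cytosolic ribosomal proteins mostly did not pass. Of 34 tested ribosome biogenesis genes 0 rose and 21 fell, 61.8%, with a median of -0.66. Of all genes 12.0% rose and 11.8% fell. Without 1 line 0 of the 34 rose and 11 to 16 fell. PPAN, a processing factor of the large subunit, measured 11.72, 9.74 and 10.01 without and 9.90, 7.71 and 7.92 with SAHA, a change of -1.99 ± 0.14 (adjusted p = 0.0013). All lines fell by a similar amount, and the groups overlapped because NB4 started higher. WDR74 changed by -1.67 ± 0.15, MRTO4 by -1.53 ± 0.13 and the histone-binding ribosome factor GRWD1 by -1.55 ± 0.17. A dimmer WDR74 probe, near the floor, gave -0.56. Of 65 cytosolic ribosomal protein genes 2 rose and 2 fell (0 up and 0 to 1 down without 1 line), 3.08% each way, with a median of 0.03 that became -0.08 with equal-median scaling. Some of these genes have near-identical processed pseudogenes, whose signal cannot be told apart on the array. Of 77 mitochondrial ribosomal protein genes 1 rose and 27 fell (0 up and 10 to 18 down without 1 line), 35.1%, with a median of -0.36. MRPL27, MRPL54, MRPS18B and MRPL15 led the falls at -1.39 ± 0.21, -1.22 ± 0.20, -1.15 ± 0.15 and -1.13 ± 0.12. Genes of oxidative phosphorylation, whose mitochondrially encoded partners need that ribosome, gave 4 rises and 7 falls among 93 (0 to 1 up and 1 to 4 down without 1 line), with a median of 0.05 (-0.10 with equal medians). The genes given with values here kept their calls without any 1 line.

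Splicing and RNA-binding genes fell in part. Of 58 tested splicing factor genes 0 rose and 15 fell (0 up and 2 to 5 down without 1 line), 25.9%, with a median of -0.20. U2AF2, which reads the polypyrimidine tract, measured 11.80, 11.41 and 11.81 without and 10.69, 10.00 and 9.58 with SAHA, a change of -1.58 ± 0.21 (adjusted p = 0.00311). HNRNPU and HNRNPR changed by -0.99 ± 0.22 and -0.86 ± 0.19. Families read from the symbols alone, each with at least 25 tested genes, are given beside the 12.0% risen and 11.8% fallen of all genes. Of 30 DDX RNA helicase genes 0 rose and 12 fell (40%, median -0.35). Of 29 RBM genes for RNA-binding proteins 0 rose and 7 fell (24.1%). Of 291 zinc finger genes named ZNF 21 rose (7.22%) and 42 fell (14.4%). ATP genes numbered 60, of which 13 rose (21.7%) and 1 fell (1.67%). RAB genes of membrane traffic numbered 57, of which 10 rose (17.5%) and 3 fell (5.26%). Of 40 genes whose symbols start with OR and a digit 0 rose and 0 fell. Among 32 proteasome genes 0 rose and 1, PSMB5, fell, at -0.79 ± 0.12 (0 up and 0 to 1 down without 1 line). Among 19 aminoacyl-tRNA synthetases 0 rose and 2 fell, LARS1 at -0.57 ± 0.16 and FARSA at -0.52 ± 0.12 (0 up and 0 down without 1 line). Calls that failed on 2 lines were those without NB4 of HNRNPU, HNRNPR, PSMB5, LARS1 and FARSA (adjusted p from 0.058 to 0.181), without K562 of HNRNPU, HNRNPR, LARS1 and FARSA (adjusted p from 0.0584 to 0.0974) and without U937 of HNRNPR, PSMB5, LARS1 and FARSA (adjusted p from 0.0577 to 0.133). The deposited log2 values gave smaller changes of -0.51 for HNRNPU. LARS1 missed the threshold with the 6 arrays alone (adjusted p = 0.0668).

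**Figure D4:**
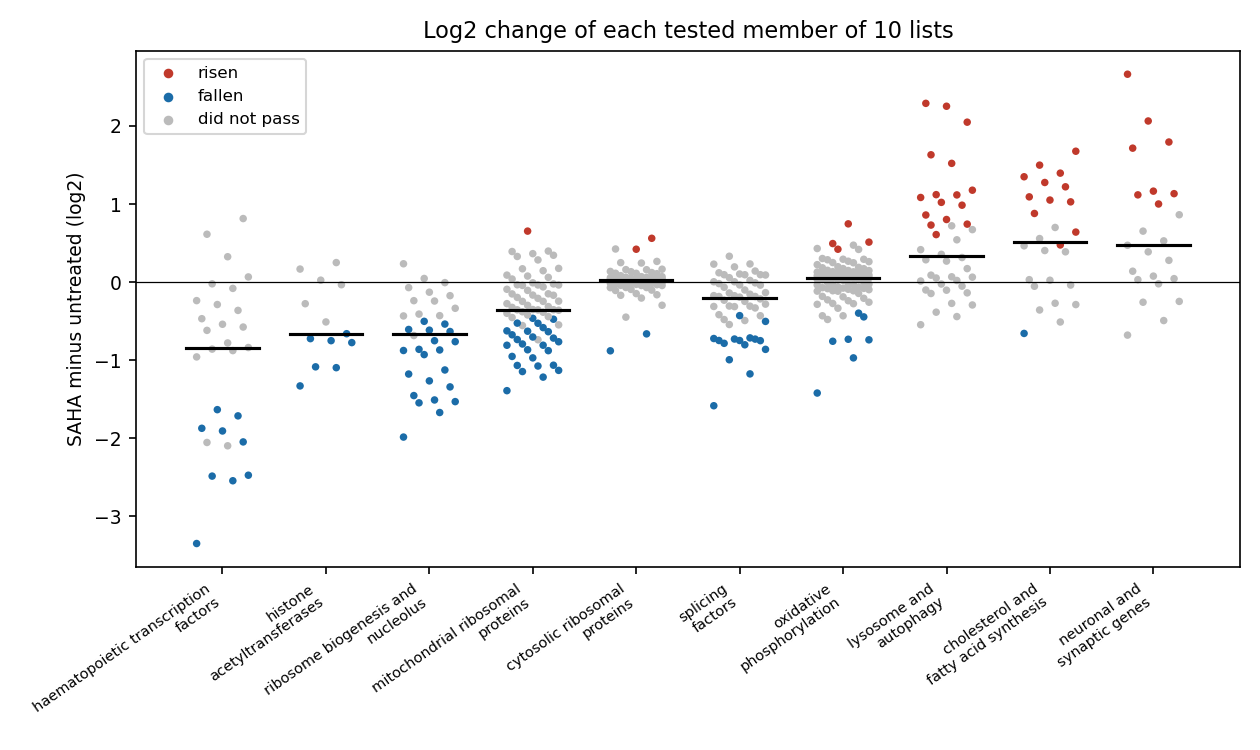
Log2 change with SAHA of each tested member (points) of 10 gene lists, with the list median as a black bar; red points rose, blue points fell and grey points did not pass. The medians run from -0.84 for haematopoietic transcription factors and -0.66 for ribosome biogenesis to 0.52 for cholesterol and fatty acid synthesis, and the cytosolic ribosomal proteins lie close around 0.03.

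Metabolic lists went separate ways. Of 26 tested genes of nucleotide and one-carbon metabolism 2 rose (7.69%) and 10 fell (38.5%), against 12.0% and 11.8% of all genes. The list median was -0.29, and without 1 line 0 rose and 5 to 7 fell. CTPS1, which makes CTP in proliferating lymphoid cells, fell, at -1.71 ± 0.15. MTHFD1L, of mitochondrial folate metabolism, fell, at -1.44 ± 0.28, and DHODH, the mitochondrial step of pyrimidine synthesis, at -1.02 ± 0.14. TK1, of thymidine salvage, rose by 1.24 ± 0.30. Its call was lost with the 6 arrays alone (adjusted p = 0.0727) and without the detection filter (0.0504). For lipid synthesis there were 12 risen among 26 tested genes of cholesterol and fatty acid synthesis (4 to 11 up and 0 to 1 down without 1 line), 46.2%, and 1 fallen, with a median of 0.52. IDI1, of isoprenoid synthesis, measured 6.74, 7.65 and 7.44 without and 7.77, 9.10 and 9.15 with SAHA, a change of 1.40 ± 0.17 (adjusted p = 0.00248). INSIG1, a sterol-sensitive brake on SREBP, measured 9.70, 11.32 and 11.23 without and 11.27, 12.71 and 12.77 with SAHA, a change of 1.5 ± 0.30 (adjusted p = 0.0124). NB4 with SAHA lay just under untreated K562, so the groups overlapped, and a dimmer INSIG1 probe gave 0.68. TM7SF2 and MSMO1, of the later sterol steps, rose by 1.68 ± 0.26 and 1.35 ± 0.25, and FASN, fatty acid synthase, fell, at -0.66 ± 0.16. Of 22 glycolytic genes 4 rose (18.2%) and 0 fell, with a median of 0.11 (-0.07 with equal medians). Without 1 line 1 to 3 rose and 0 fell. The glucose transporter SLC2A3 rose most, by 2.19 ± 0.34 (adjusted p = 0.00504), from 11.19, 11.32 and 9.71 to 12.70, 13.09 and 13. On 2 lines alone the threshold was missed without NB4 by MTHFD1L, TK1, INSIG1, MSMO1 and FASN (adjusted p from 0.0789 to 0.156), without K562 by TK1 and FASN (adjusted p from 0.0687 to 0.138) and without U937 by MTHFD1L, TK1 and MSMO1 (adjusted p from 0.0638 to 0.0901). Smaller changes came from the deposited log2 values, -0.53 for DHODH.

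Lysosomal and autophagy genes rose or did not pass the test. Of 42 tested genes of lysosome and autophagy 16 rose, 38.1% against 12.0% of all genes, and 0 fell. The list median was 0.34 (0.57 in NB4, 0.21 in K562 and 0.35 in U937). Without 1 line 7 to 11 rose and 0 fell. ATG2A, a lipid transfer protein of autophagosome growth, measured 7.68, 8.30 and 7.82 without and 10.52, 10.24 and 9.91 with SAHA, a change of 2.29 ± 0.20 (adjusted p = 0.00155). WIPI1, which binds phosphoinositides on forming autophagosomes, measured 5.80, 7.56 and 7.51 without and 9.39, 9.24 and 8.99 with SAHA, a change of 2.25 ± 0.41 (adjusted p = 0.00883). The treated and untreated arrays did not overlap for either gene. NEU1, the lysosomal sialidase, rose by 2.05 ± 0.31, and MCOLN1, the lysosomal calcium channel, by 1.63 ± 0.24. Leaving out 1 line ended the call, without U937 for MCOLN1 (adjusted p = 0.0549).

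Stress pathways showed rises next to falls. Of 24 tested oxidative stress genes 5 rose (20.8%) and 3 fell (12.5%), with a median of 0.23. Of all genes 12.0% rose and 11.8% fell. Without 1 line 2 to 5 of the 24 rose and 2 fell. SESN2 and SESN1, sestrins that restrain mTORC1, rose by 1.98 ± 0.22 (adjusted p = 0.00214) and 1.70 ± 0.27 (adjusted p = 0.00542), and the glutaredoxin GLRX by 1.90 ± 0.30. KEAP1, the inhibitor of the antioxidant factor NRF2, measured 10.12, 8.82 and 8.20 without and 8.16, 7.08 and 6.80 with SAHA, a change of -1.70 ± 0.14 (adjusted p = 0.00147). NQO1, a classic NRF2 target, changed by -1.36 ± 0.15 (adjusted p = 0.00211). KEAP1 and NQO1 both had every SAHA array below every untreated array. Of 20 ATF4 and ER stress genes 6 rose (30%) and 2 fell (10%), with 3 up and 0 to 2 down without 1 line. The chaperone HSPA5 (BiP) rose by 0.85 ± 0.14 and HERPUD1, of ER-associated degradation, by 1.14 ± 0.25, while XBP1, a transcription factor of the unfolded protein response, fell, at -0.94 ± 0.16. Of 18 hypoxia genes 5 rose (27.8%) and 1 fell (5.56%), BHLHE40 at -1.44 ± 0.32. Without 1 line 2 to 4 rose and 0 to 1 fell. NDRG1 rose by 1.35 ± 0.18, EPAS1 (HIF-2 alpha) by 1.80 ± 0.33 and DDIT4, an mTORC1 inhibitor, by 1.15 ± 0.20. SESN2 and DDIT4 stand in more than 1 of these lists. Detection reached 2 of 3 untreated arrays for SESN2 and EPAS1. Fits without 1 line did not call every gene, failing without NB4 for XBP1, BHLHE40 and DDIT4 (adjusted p from 0.0529 to 0.122), without K562 for HERPUD1 and BHLHE40 (adjusted p from 0.0502 to 0.0596) and without U937 for GLRX, HERPUD1, EPAS1 and DDIT4 (adjusted p from 0.0516 to 0.107). On the deposited log2 scale the change shrank to 1.12 for SESN2.

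Cell cycle genes fell in part. Of 42 tested DNA replication genes 4 rose (9.52%) and 8 fell (19%), against 12.0% and 11.8% of all genes, with 0 to 2 up and 2 to 5 down without 1 line and a median of -0.12. Of 35 G2/M genes 4 rose (11.4%) and 8 fell (22.9%), with 0 to 1 up and 2 to 3 down without 1 line and a median of -0.31. GINS3, of the replicative helicase, fell, at -1.49 ± 0.20 and the origin-firing kinase CDC7 at -1.22 ± 0.22. PLK1, a mitotic kinase, measured 8.68, 9 and 8.19 without and 7.55, 7.41 and 6.54 with SAHA, a change of -1.46 ± 0.16 (adjusted p = 0.00196), with no overlap. Cyclin A2 (CCNA2) and the mitotic transcription factor FOXM1 fell, at -0.89 ± 0.16 and -0.86 ± 0.16, whereas the mitotic kinase NEK2 rose by 1.08 ± 0.24. In the fits on 2 lines the call was lost without NB4 for CCNA2 and NEK2 (adjusted p from 0.0524 to 0.0915), without K562 for FOXM1 and NEK2 (adjusted p from 0.0737 to 0.0766) and without U937 for CDC7, CCNA2, FOXM1 and NEK2 (adjusted p from 0.0644 to 0.0914). The deposited log2 values gave smaller changes of -0.57 for FOXM1.

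Apoptosis genes moved both ways. Of 32 tested 8 rose (25%) and 4 fell (12.5%), against 12.0% and 11.8% of all genes. The list median was 0.08, and without 1 line 3 to 7 rose and 1 to 3 fell. APAF1, the core of the apoptosome, measured 9.28, 8.09 and 8.30 without and 11.10, 10.24 and 10.08 with SAHA, a change of 1.91 ± 0.17 (adjusted p = 0.00155). BMF and BIK, BH3-only killers, rose by 2.12 ± 0.38 and 1.45 ± 0.25, and the TRAIL receptor TNFRSF10B by 1.68 ± 0.34, with 0.53 in U937 and 0.60 from a dimmer probe. The survival gene BCL2L1 measured 9.78, 11.56 and 11.19 without and 8.38, 9.74 and 10.18 with SAHA, a change of -1.41 ± 0.19 (adjusted p = 0.00318). CFLAR, which blocks caspase-8 activation, fell, at -1.37 ± 0.28, and the BH3-only gene BID at -1.23 ± 0.22. The death receptor adaptor FADD fell, at -0.60 ± 0.14. Detection reached 2 of 3 untreated arrays for BMF and BIK. Calls that failed on 2 lines were those without NB4 of BMF, TNFRSF10B, CFLAR, BID and FADD (adjusted p from 0.0624 to 0.12), without K562 of TNFRSF10B, CFLAR, BID and FADD (adjusted p from 0.0543 to 0.0839) and without U937 of BIK and FADD (adjusted p from 0.0586 to 0.137). Smaller changes came from the deposited log2 values, 1.26 for BMF and 0.93 for BIK.

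Neuronal genes rose or did not pass the test. Of 23 tested neuronal genes 8 rose, 34.8% against 12.0% of all genes, and 0 fell, with a median of 0.47. Without 1 line 5 to 7 rose. Of the 8 risen genes 3 were not detected on at least 1 untreated array. TUBB3, the neuronal beta-tubulin, measured 9.88, 9.67 and 9.67 without and 11.86, 11.71 and 11.85 with SAHA, a change of 2.06 ± 0.25 (adjusted p = 0.00258), nearly equal in the 3 lines. SYT11, a synaptotagmin, rose by 1.79 ± 0.22 (adjusted p = 0.00256). ENO2, the neuronal enolase, measured 5.27, 8.94 and 5.99 without and 8.06, 9.40 and 7.88 with SAHA. K562 already had it and changed by 0.46, so the groups overlapped, and the mean change was 1.72 ± 0.45 (adjusted p = 0.0312). ENO2 missed the threshold with the 6 arrays alone (adjusted p = 0.0598) and without the detection filter (0.0661). Of 18 tubulin genes 2 rose, 11.1% (1 to 4 genes without 1 line). Of 16 genes listed as classic HDAC inhibitor responders 7 rose (4 to 6 without 1 line) and 0 fell, with a median of 0.78. That list was drawn up from genes known to rise under such drugs, so its direction was set in advance. Signal passed detection on 2 of 3 untreated arrays for ENO2. On 2 lines alone the threshold was missed without NB4 by ENO2 (adjusted p = 0.118) and without U937 by ENO2 (adjusted p = 0.158). On the deposited log2 scale the change shrank to 1.13 for SYT11 and 1.07 for ENO2.

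Some genes crossed the detection limit in every line. There were 42 genes (0.374%) detected on 0 of 3 untreated and all 3 SAHA arrays and 18 (0.160%) detected on every untreated and on no SAHA array. These genes were chosen for that pattern, so their values and p-values describe them and support nothing further. Besides HPCAL4, the first set held DRC10, a ciliary protein, at 4.92, 4.75 and 4.66 without and 7.19, 6.46 and 6.42 with SAHA. It was at least 2.66-fold (adjusted p = 0.00277) higher. TLCD3B, of sphingolipid metabolism, was at least 3.04-fold (adjusted p = 0.0127) higher. The kinase MAP3K9 was at least 2.47-fold (adjusted p = 0.0153) and CTTNBP2NL, a phosphatase complex subunit, at least 2.42-fold (adjusted p = 0.00263) higher. In the other set stood ZFX, a zinc finger transcription factor of stem cells. It measured 7.64, 6.46 and 6.81 without and 4.86, 4.75 and 5.16 with SAHA and was at least 3.35-fold (adjusted p = 0.00197) lower. ARID2, a subunit of the remodelling complex PBAF, was at least 3.21-fold (adjusted p = 0.00591) lower. EPC1 and EPC2, scaffolds of the NuA4 acetyltransferase complex, were at least 2.58-fold (adjusted p = 0.00166) and 1.51-fold (adjusted p = 0.0165) lower. KAT6B, a histone H3 acetyltransferase, was at least 1.59-fold (adjusted p = 0.00792) lower, as was CMPK2, a mitochondrial nucleotide kinase, at 1.77-fold (adjusted p = 0.00849). Every bound compares the higher group with the lowest signal that counted as detected, and holds only on the background-corrected scale used here. A larger offset in that correction (50 instead of 16) gave log2 changes of 1.78 for HPCAL4 and -1.32 for ZFX. Both are smaller than the bounds of these genes. Leaving out 1 line ended the call, without NB4 for TLCD3B, MAP3K9, KAT6B and EPC2 (adjusted p from 0.0528 to 0.113), without K562 for TLCD3B (adjusted p = 0.0886) and without U937 for MAP3K9, CMPK2, KAT6B and EPC2 (adjusted p from 0.0653 to 0.0975). The deposited log2 values gave smaller changes of 0.96 for TLCD3B, 1.03 for DRC10, 0.74 for MAP3K9, 0.72 for CTTNBP2NL, -1.10 for ZFX, -0.92 for ARID2, -0.99 for EPC1, -0.65 for CMPK2, -0.61 for KAT6B and -0.31 for EPC2.

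The lines agreed in broad terms and differed in size. Across the 11228 genes, which share the arrays and are not independent, log2 changes correlated at r = 0.654 between NB4 and K562, 0.678 between NB4 and U937 and 0.619 between K562 and U937, and signs matched for 72.6%, 71.3% and 70.9% of genes. NB4 had the widest changes, with an SD of 0.81 against 0.67 in K562 and 0.66 in U937. At least 2-fold and detected on the higher array, 1032 genes were up and 862 down in NB4 (9.19% and 7.68%), 724 and 629 in K562 (6.45% and 5.60%), and 706 and 707 in U937 (6.29% and 6.30%). With 1 pair per line these counts have no test.

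**Figure D5:**
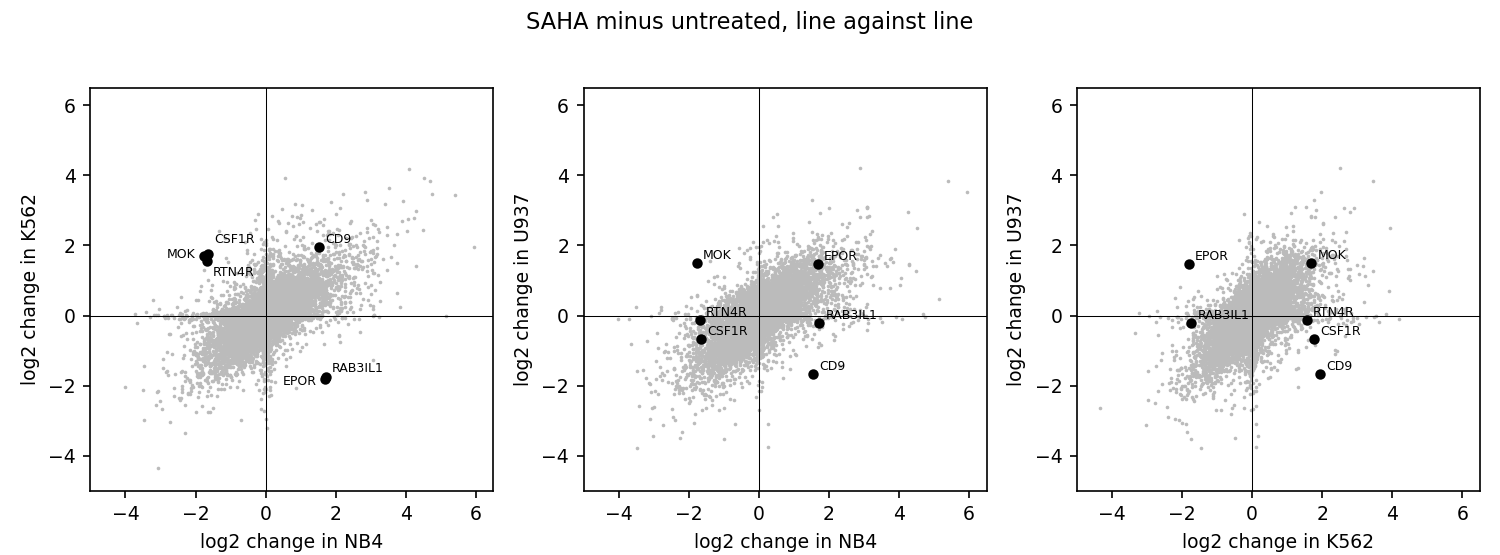
Log2 change with SAHA in one line against that in another for 11228 genes (grey), with the 6 genes named as moving in opposite directions in black. Most points lie along the rising diagonal, with 70.9 to 72.6% of genes of the same sign in both lines, and the named genes fall in the upper left or lower right of at least 1 panel.

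Changes limited to 1 line were described where the other lines moved by less than 0.5, with no test of the difference. In NB4 the fibroblast growth factor receptor gene FGFR3 gave 3.10, the phospholipid flippase ATP8B2 3.08 and the transcription factor POU4F1 2.97. HK1, the housekeeping hexokinase, gave 5.14 in NB4 with its brightest probe, but its other probes gave -0.07 and 1.51, so this size belongs to a single probe. The haematopoietic factor GATA2 gave -2.49 in NB4, while K562, which also expresses it, gave -0.32. HOXD13 (-3.72), the cytochrome CYP1B1 (-3.08) and RHEX, an erythropoietin signalling adaptor (-2.80), were detected without SAHA in NB4 and in no other line. In K562 the prostaglandin E synthase PTGES gave 3.05, the Wnt inhibitor NKD2 2.89, NCCRP1 2.84 and ART5 2.72. Untreated K562 was below detection for PTGES (5.07) and NKD2 (4.81), so the sizes of these rises are uncertain. NKD2 measured 10.95 in untreated NB4 and 10.73 in NB4 with SAHA. Detected in K562 alone, and lower but still detected there with SAHA, were genes of the erythroid and megakaryocytic lineage, namely the platelet tubulin TUBB1 (-3.21), TAL1 (-2.72) and GFI1B (-2.39), as well as HOXB2 (-2.95). In U937 the formyl peptide receptor FPR1 gave 2.27, the activation antigen CD69 2.16, the actin-binding protein PALLD 2.14 and the splicing factor paralogue U2AF1L4 2.56. CD69 was below detection in untreated U937 (4.96), so the size of its rise is uncertain. The chemokine receptor CXCR2 gave -2.32, SLC26A9 -3.76, TMEM163 -2.70 and LKAAEAR1 -2.16 in U937, where alone they were detected without SAHA. None of these genes passed the test over the 3 lines.

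At least 2-fold up in one line and 2-fold down in another was seen for 24 genes (0.214%). CSF1R, the receptor of macrophage colony-stimulating factor, measured 8.35, 4.69 and 8.33 in untreated NB4, K562 and U937 cells and 6.70, 6.46 and 7.65 with SAHA. It was lower with SAHA in NB4 and U937, and it was detected in K562 only with an inhibitor. EPOR, the erythropoietin receptor, measured 5.92, 8.30 and 6.60 without and 7.61, 6.49 and 8.07 with SAHA, lower in K562, the erythroid line, where it stayed detected, and higher in the other lines. The tetraspanin CD9 measured 9.82, 7.28 and 9.27 without and 11.35, 9.23 and 7.60 with SAHA. It was higher with SAHA in NB4 and K562 and lower in U937. The kinase MOK gave -1.77 in NB4, 1.69 in K562 and 1.51 in U937. The RAB exchange factor RAB3IL1 gave 1.72 in NB4, -1.74 in K562 and -0.22 in U937. It was below detection in untreated NB4 (4.65), so the size of that rise is uncertain. The Nogo receptor RTN4R gave -1.69 in NB4, 1.56 in K562 and -0.13 in U937. The means of these 6 genes over the lines did not pass the test, and the differences between lines were not tested.

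SAHA and MS-275, which differ in the zinc-binding group (a hydroxamic acid against a benzamide) and in class selectivity, were compared at the same dose and time as 1 pair of compounds. Expression differed for 2649 genes, 23.6%, with 1506 higher with SAHA (13.4%) and 1143 lower (10.2%), and 593 and 386 of these at least 2-fold. Without NB4, K562 or U937 the number was 834, 1724 or 511. Against untreated cells, 487 genes rose (4.34%) and 838 fell (7.46%) with MS-275. Both comparisons share the untreated arrays, so differences rest on SAHA minus MS-275 alone.

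The largest differences between the compounds ran both ways. DACT3 measured 6.19, 7.68 and 5.10 with MS-275 in NB4, K562 and U937, against 11, 10.05 and 9.41 with SAHA, a difference of 3.83 ± 0.65 (adjusted p = 0.008). WIPI1 measured 5.28, 7.03 and 6.68 with MS-275 and 9.39, 9.24 and 8.99 with SAHA, a difference of 2.87 ± 0.41 (adjusted p = 0.00469). WDR19, a ciliary transport protein, measured 8.57, 7.41 and 6.94 with MS-275 and 10.80, 10.43 and 10.19 with SAHA, a difference of 2.83 ± 0.20 (adjusted p = 0.00187). In each of these genes every SAHA array lay above every MS-275 array of the same line. RAB40B, a GTPase that recruits ubiquitin ligases, and the zinc finger gene ZNF324 differed by 2.81 ± 0.23 (adjusted p = 0.00187) and 2.61 ± 0.19 (adjusted p = 0.00187). On the other side stood IL18RAP, a subunit of the interleukin-18 receptor, with 9.40, 11.12 and 10.65 with MS-275 and 5.57, 7.65 and 6.22 with SAHA, a difference of -3.91 ± 0.47 (adjusted p = 0.00289). DHRS9, a retinol dehydrogenase, differed by -3.38 ± 0.36 (adjusted p = 0.00238), while a dimmer DHRS9 probe near the floor gave -0.03 for SAHA against untreated. The monocyte chemokine CCL2 differed by -2.96 ± 0.50 (adjusted p = 0.00803) and PCED1B by -3.22 ± 0.22 (adjusted p = 0.00187), and neither passed against untreated cells with SAHA. NFE2 measured 10.73, 13.05 and 11.44 with MS-275 and 7.62, 10.61 and 8.32 with SAHA, a difference of -2.89 ± 0.27 (adjusted p = 0.00201). MS-275 moved some of these genes itself against untreated cells. It lowered RAB40B (-1.27, adjusted p = 0.0194) and ZNF324 (-1.46, 0.0101). It raised IL18RAP (1.88, adjusted p = 0.0444), DHRS9 (1.98, 0.0205), CCL2 (1.94, 0.0496) and PCED1B (2.86, 0.00523). DACT3, WIPI1, WDR19 and NFE2 did not pass for MS-275 against untreated. Without U937 the call against MS-275 was lost for DACT3 (adjusted p = 0.0823) and IL18RAP (adjusted p = 0.0502), and without NB4 for CCL2 (adjusted p = 0.0682).

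Of all genes 13.4% were higher with SAHA than with MS-275 and 10.2% lower. By list, 17 of 42 lysosome and autophagy genes were higher and 2 lower. For cholesterol and fatty acid synthesis 11 of 26 were higher and 1 lower. Corepressor subunits gave 11 higher and 2 lower of 31. Haematopoietic transcription factors gave 0 higher and 10 lower of 29, and mitochondrial ribosomal proteins 2 higher and 16 lower of 77. Ribosome biogenesis genes gave 6 higher and 4 lower of 34. Against untreated cells they fell in 24 of 34 cases with MS-275 and in 21 with SAHA. Of all genes 7.46% fell with MS-275 and 11.8% with SAHA. CDKN1A did not differ detectably, at 0.02 ± 0.30 (adjusted p = 0.972) with a 95% interval of -0.69 to 0.73, nor did KLF2 at 0.05 ± 0.23 (adjusted p = 0.891), with an interval of -0.49 to 0.60. For MYC the difference was -1.04 ± 0.41 (adjusted p = 0.114) with an interval of -2.01 to -0.06, and for IER3 -0.39 ± 0.31 (adjusted p = 0.39) with an interval of -1.11 to 0.33. The interval for HDAC1 ran from -0.12 to 0.43, and that for HDAC3, which differed by 0.82 ± 0.14 (adjusted p = 0.0087), from 0.48 to 1.15. The HDAC3 difference lost its call without NB4 (adjusted p = 0.0713) and without U937 (adjusted p = 0.0685). Intervals are per gene and not adjusted for the number of genes, and one that spans 0 leaves differences of either sign up to its ends.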

How the data were processed

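RNA of 9 cultures was measured on Illumina bead arrays after biotin labelling, per the labels. The authors deposited bead intensity per probe, neither background-subtracted nor normalized as found from the values, with a detection p-value for each, and a table of log2 values. The authors' log2 values, made with lumi (version not given) per the submitters' processing notes, equalled quantile-normalized log2 intensity within 5e-09 for all 199593 values. The tables were linked by the ranks of the probes, which matched for 22177 of 22177 probes. Scan settings and a genome build are not given in the sources used here. Symbols came from the platform annotation for 19708 probes (2469 had none, 0 several), and 19688 Entrez identifiers were found in RefSeq.

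Intensities were background-corrected with nec in limma 3.58.1 (R 4.3.3, offset 16, negative controls inferred from detection p-values), quantile-normalized and log2-transformed. Testing required a detection p under 0.05 on 3 or more of the 9 arrays, which 13836 probes met, and each of 11228 genes was read from its brightest probe (1108 genes had several). limma fitted treatment and line over all 9 arrays with 4 residual degrees of freedom, with Benjamini-Hochberg adjustment of two-sided p-values over all genes. The number of arrays limits the precision, with a median SE of 0.168. The labels number every array as replicate 1, so the pairing rests on the shared cell line alone. With treatment means removed, pairs of arrays from the same line had r = 0.865 to 0.925. Pairs from different lines then had -0.695 to -0.171. That step by itself pushes correlations between lines to negative values, so their sign says nothing about the pairing. Without it, the SAHA and untreated array of a line correlated at r = 0.942 to 0.961. Between lines r then ran from 0.766 to 0.89. The script was tested on simulated data with 200 changed genes.

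Named genes were the 20 largest rises and falls among genes that passed, moved one way in every line and had a detected signal on each array of the brighter group, the 6 most even each way among those at least 2-fold in every line, up to 4 each way per line, 6 opposed, 6 each way across detection, 5 each way against MS-275, and up to 4 each way per list. Not every gene these rules chose is described. The members, lists and rules were chosen with earlier results of these data known. Alternatives covered background correction, normalization, offset, detection filter, probes per gene, arrays, block, line and moderation. Promoter sequences came from RefSeq (GRCh38.p14).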

Additional observations from a re-analysis of the deposited data

Results flagged for a closer look

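Named genes are listed here where SAHA moved at least 1 line up and another down, and the gap is the log2 change of the highest line minus that of the lowest. The difference between lines was not tested, since each line has 1 array per treatment. For 6 genes both changes were at least 2-fold. CD9 had a gap of 3.63 between K562 (1.95) and U937 (-1.67). EPOR had a gap of 3.49 between NB4 (1.69) and K562 (-1.81). RAB3IL1 had a gap of 3.46 between NB4 (1.72) and K562 (-1.74), with untreated NB4 below detection. MOK had a gap of 3.46 between K562 (1.69) and NB4 (-1.77). CSF1R had a gap of 3.41 between K562 (1.77) and NB4 (-1.64), with untreated K562 below detection. RTN4R had a gap of 3.24 between K562 (1.56) and NB4 (-1.69).

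In 18 other named genes that did not pass the test over the lines the change on one side of 0 was small, and the gaps were HK1 (5.15), SLC26A9 (4.01), HOXD13 (3.77), FGFR3 (3.50), PTGES (3.30), TUBB1 (3.27), CYP1B1 (3.11), NKD2 (3.10), ART5 (3.03), NCCRP1 (3.03), HOXB2 (2.97), RHEX (2.96), TAL1 (2.85), CD69 (2.53), FPR1 (2.30), LKAAEAR1 (2.26), PCED1B (0.59) and HDAC6 (0.34). The rises of PTGES and NKD2 in K562 and of CD69 in U937 started from undetected signal, so their gaps are uncertain in size. Of genes that passed, TUBB4A, a neuronal beta-tubulin, had a gap of 3.95 and was detected on 0 untreated and 2 SAHA arrays. Its call was lost without NB4 (adjusted p = 0.249), without K562 (0.211) and with the 6 arrays alone (0.0996). PFKFB4, a regulator of glycolysis, had a gap of 2.60, and its call was lost without NB4 (adjusted p = 0.29), without U937 (0.264) and with the 6 arrays alone (0.109).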

How the results depend on the processing

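The count of 2665 changed genes stayed between 2046 and 2802 under cyclic loess, equal medians, offset 50, no detection filter, probes detected on all 9 arrays, every probe fitted, the deposited log2 values, moderation with a trend and the 6 arrays alone. The deposited log2 values, which hold no background correction, gave 123 genes 2-fold up and 126 down in every line. Equal medians gave 998 risen and 1804 fallen genes. In the fits that leave out 1 line, 887 to 1681 genes changed (406 to 846 up, 481 to 835 down), with 1069 (547 up, 522 down) without U937, and 511 to 1724 differed from MS-275, with 834 without NB4. These fits have fewer arrays. Without the replicate block, which pairs arrays by line, 101 genes changed, 41 up and 60 down, and 72 differed from MS-275. Of the 52 genes named for the largest or most even changes 20 kept the call without the block and 45, 49 and 49 without NB4, K562 and U937. No direction reversed among the named results. Of 216 named genes past the test 96 kept the call without each line in turn, 208 on the deposited log2 values, 199 with equal medians, 193 without the detection filter, 186 with the 6 arrays alone and 36 without the block. The change was over 1.5 times smaller for 48 of them on the deposited log2 values and for 10 with offset 50. The loss of FCRLA with offset 50 (adjusted p = 0.0776) and of GPC2 without the filter (0.0504) were the other changes among the 52. With probes detected on all 9 arrays 35 of the 52 could be fitted. Dim probes limit what can be seen below the detection floor.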
